A study of Mus musculus with 6 samples.

Results

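The genes described here encode the brakes, receptors and first relay proteins of interleukin-1 (IL-1) family signalling. They are Il1rn, Il18bp, Il1r2, Il1r1, Il1rap, Sigirr, Myd88, Irak4, Irak2 and Irak3. These 10 genes, out of 52550 in the deposited table, were matched by symbol, and each symbol occurred once. All 10 passed the filter on low counts. They were measured by mRNA sequencing in bone marrow-derived macrophages of C57BL/6 mice, grown for 7 days with the macrophage growth factor M-CSF at 25 ng/ml. Of the 6 libraries, 3 came from cells that received the medium of normal chondrocytes (C CM1, C CM2 and C CM3) and 3 from cells that received that of apoptotic chondrocytes (AC CM1, AC CM2 and AC CM3). The sources used here do not give the apoptosis inducer or the exposure time, and no library came from macrophages without conditioned medium. The labels do not say whether the libraries of a group came from separate mice or cultures, so p-values measure only the spread between these libraries, which may be technical.

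IL-1 alpha and IL-1 beta act on a receptor made of the ligand-binding chain IL1R1 and the accessory chain IL1RAP, whose cytoplasmic TIR domains recruit the adaptor MyD88 and then the kinases IRAK4, IRAK1 and IRAK2. Macrophages both make IL-1 and respond to it, and the same adaptor and kinases serve most Toll-like receptors and the receptors of IL-18 and IL-33. The pathway is restrained outside the cell by the receptor antagonist (Il1rn) and the decoy receptor IL1R2, and inside it by SIGIRR and the pseudokinase IRAK-M (Irak3). The IL-18 binding protein (Il18bp) restrains IL-18 rather than IL-1.

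After AC CM, 1 of the 10 genes rose and 2 fell, while the other 7 missed the threshold. Sigirr, an inhibitory receptor, was 1.96-fold lower, Irak4, the kinase that starts the relay, was 1.37-fold lower, and Il1rap was 1.26-fold higher. The test was edgeR's quasi-likelihood test at a Benjamini-Hochberg adjusted p under 0.05. Of all 17863 genes tested, 26.5% passed it, 13.3% in each direction, so 3 calls among 10 genes lie near the share of the whole table. The log2 fold change (AC CM over C CM) was below 0 for 9 of the 10, against 50.4% of all genes, with a median of -0.32 beside -0.00 over all genes. For Il1r2 and Irak2, however, the sign turned when 1 library was left out. Levels are given in CPM, each gene's counts as a share of the library total, scaled by TMM. In 6 of the 10 genes the libraries of the groups did not overlap, 5 lower and 1 higher after AC CM, beside 44.7% of all genes, 22.1% lower and 22.6% higher.

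**Figure D1:**
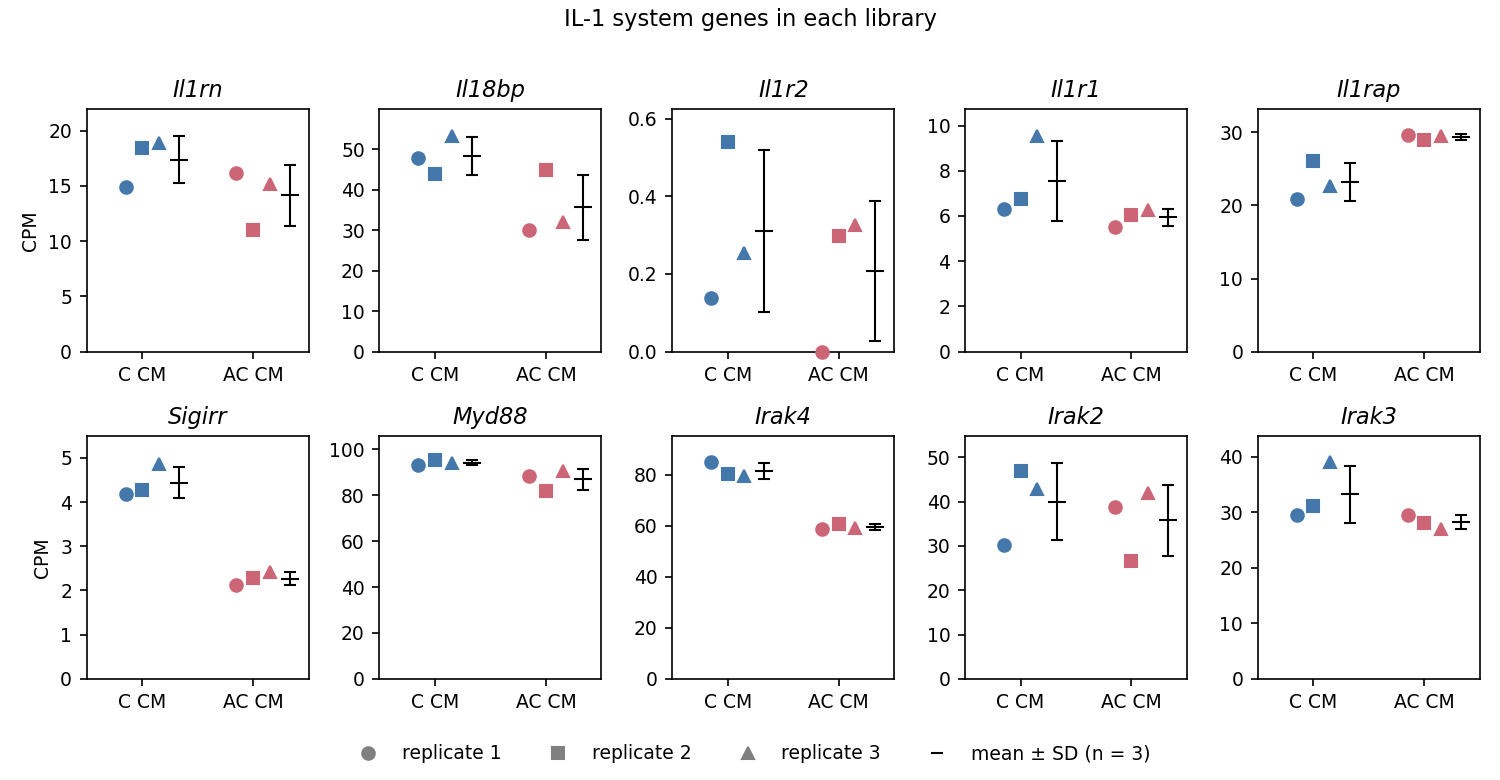
Level of each of the 10 genes in CPM (vertical axes, each from 0) in the 3 C CM libraries (blue) and the 3 AC CM libraries (red), with the mean and SD of each group in black. Sigirr and Irak4 are lower and Il1rap is higher in every AC CM library, while the groups overlap for Il1rn, Il18bp, Il1r2 and Irak2.

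Library totals ran from 65630784 to 80105872 counts. Macrophage markers (10 genes) summed to 19920 to 21370 CPM after C CM and 17550 to 18300 CPM after AC CM, with 4 of 10 lower. Markers of other cells were present and moved with the groups. The sum of 13 neutrophil and granulocyte precursor genes was 1024 to 1150 CPM after C CM and 276.1 to 286.7 CPM after AC CM, with 10 of 12 tested genes lower. Lymphocyte genes (B, T and NK cells, 10 genes) went from 27.77 to 33.88 CPM down to 10.29 to 10.36 CPM, with 9 of 9 tested lower. Cd79b, with a mean of 20.48 CPM after C CM and 8.65 CPM after AC CM, made up most of that sum. Dendritic cell genes (9) went from 59.57 to 72.23 CPM down to 15.29 to 17.25 CPM, with 8 of 9 lower. Itgax, with a mean of 48.52 CPM after C CM and 12.68 CPM after AC CM, made up most of that sum. Monocyte genes (8) went from 1764 to 1952 CPM down to 1178 to 1233 CPM, with 5 of 8 lower. Fibroblast genes (8) were at 4306 to 5313 CPM and 3511 to 3597 CPM, with 5 of 8 lower. Col1a1 (means of 1916 and 1341 CPM) and Col1a2 (2080 and 1561 CPM) made up most of it. Mast cell and basophil genes (7) were at 14.79 to 17.30 CPM and 3.79 to 4.97 CPM, with 2 of 5 lower and Fcer1a at 0 in every library. Most of that sum was Kit, with a mean of 13.13 CPM after C CM and 2.98 CPM after AC CM. Chondrocyte genes (10) were at 72.13 to 84.10 CPM and 108.3 to 110.6 CPM, with 1 of 6 higher and Ucma at 0 in every library. The higher gene was Col11a1, with a mean of 35.65 CPM after C CM and 62.54 CPM after AC CM. Col2a1, the other large part of the sum, did not pass (adjusted p = 0.179). Hepatocyte genes (10, 1 called higher) summed to 43.87 CPM in C CM1, 1.62 in C CM2 and 0.54 in C CM3, and to 50.49 CPM in AC CM1, 600.8 in AC CM2 and 1389 in AC CM3, so they differed widely within each group. In bulk RNA, fewer cells of a type and less RNA per cell cannot be told apart.

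The levels of different genes can be compared only per length, so CPM were divided by the summed length of each gene's exons in GENCODE M21 (CPM per kb). Myd88 stood highest, at 36.6 ± 0.41 after C CM and 33.8 ± 1.79 CPM per kb after AC CM (SD, n = 3 throughout). Irak4 and Il18bp came next, at 16.2 ± 0.61 and 16.0 ± 1.56 after C CM, and their ranges overlapped in both groups. Irak2 (9.06 ± 1.97) and Irak3 (9.04 ± 1.39) overlapped as well. Below them after C CM were Il1rn (3.14 ± 0.39), Il1rap (2.04 ± 0.23), Sigirr (1.46 ± 0.12), Il1r1 (1.18 ± 0.28) and Il1r2 (0.16 ± 0.11). Only Sigirr and Il1r1 overlapped among these. After AC CM, Il1rap (2.58 ± 0.03) and Il1rn (2.56 ± 0.50) overlapped, and Sigirr (0.75 ± 0.05) lay below Il1r1 (0.93 ± 0.06) without overlap. Within this set, Myd88, Irak4, Irak2 and Irak3 were thus all measured above the receptor chains Il1rap, Il1r1, Sigirr and Il1r2. Toll-like receptor genes, which the same adaptor and kinases serve, were not ranked here.

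Among the extracellular inhibitors, Il1rn encodes the antagonist that occupies IL1R1 without recruiting IL1RAP. Il1rn (chromosome 2, 24336853 to 24351494, plus strand) was at 14.9, 18.4 and 18.9 CPM in C CM1 to C CM3 and at 16.2, 11.0 and 15.2 CPM in AC CM1 to AC CM3, the order kept below. The groups overlapped, and only AC CM2 lay below every C CM library. Its log2 fold change was -0.30 (SE 0.16, 95% interval -0.67 to 0.07, adjusted p = 0.217). The gene has secreted and intracellular products with separate starts, which counts per gene do not separate.

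Il1b, the ligand that the antagonist opposes, was at 3.62, 4.69 and 5.03 CPM after C CM and at 3.08, 1.95 and 2.77 CPM after AC CM, with no overlap. It fell by 0.77 (SE 0.22, adjusted p = 0.0326), but the call was lost when 1 of 4 libraries was left out: with C CM2, C CM3, AC CM2 or AC CM3 left out the adjusted p was 0.0916, 0.102, 0.101 or 0.0779. AC CM2 had the lowest Il1rn and the lowest Il1b of its group, and C CM1 had the lowest of both in its own. The number of Il1rn counts per Il1b count was 4.13, 3.92 and 3.75 in the C CM libraries and 5.26, 5.65 and 5.49 in the AC CM libraries. Every AC CM ratio lay above every C CM ratio. This ratio is not per length, so its size depends on the exon lengths, while the difference between the groups does not. Per kb, mean levels of Il1rn and Il1b were 3.14 and 2.33 CPM after C CM and 2.56 and 1.36 CPM after AC CM. On the log2 scale the ratio was 1.97 ± 0.07 after C CM and 2.45 ± 0.05 after AC CM (SD, n = 3), a difference of 0.48. The exact two-sided permutation test over samples gave p = 0.10, the smallest that 3 against 3 samples allow. The granulocyte and monocyte marker sums, given above, were also lower after AC CM. The part of those cells in the Il1b level and in the ratio was not tested.

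**Figure D2:**
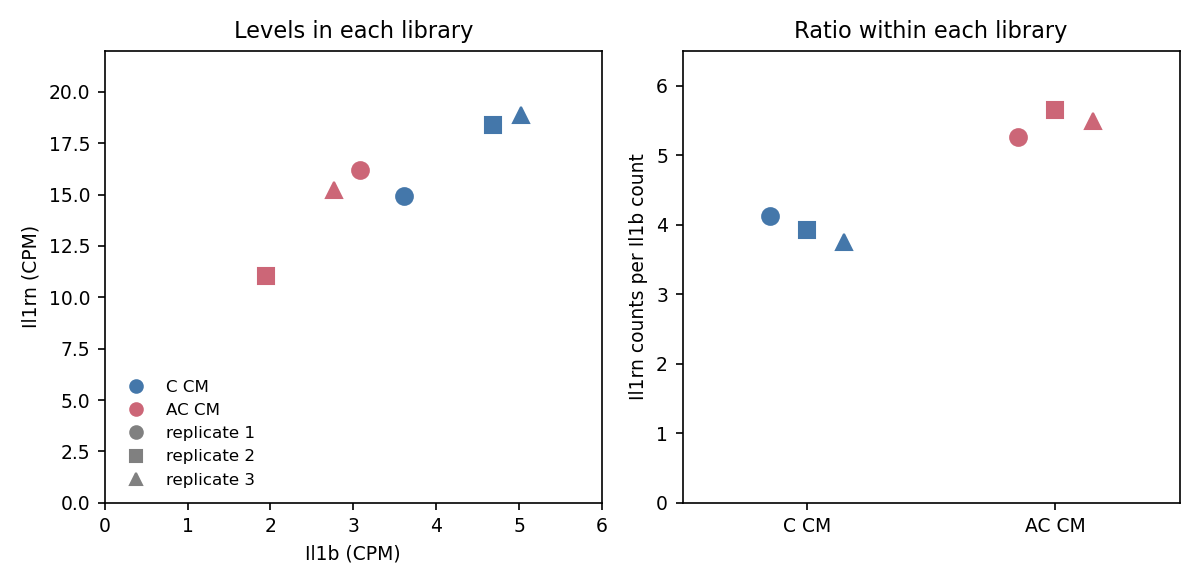
Left, Il1rn against Il1b in CPM, 1 point per library. Right, Il1rn counts per Il1b count in each library, with the vertical axis from 0: the C CM libraries (blue) lie between 3.75 and 4.13 and the AC CM libraries (red) between 5.26 and 5.65. Neither panel is corrected for the lengths of the genes.

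Il18bp encodes a secreted protein that binds and neutralises IL-18. Il18bp (chromosome 7, 102014885 to 102018690, minus strand) was at 47.8, 43.9 and 53.3 CPM after C CM and at 30.1, 44.8 and 32.1 CPM after AC CM. AC CM1 and AC CM3 were below every C CM library, and AC CM2 lay among them. The log2 fold change was -0.44 (SE 0.15, adjusted p = 0.0625), which did not pass, although its own 95% interval of -0.78 to -0.10, not adjusted for the number of genes, lies below 0. Without AC CM2 it was called, at -0.63 (adjusted p = 0.00765). DESeq2 called it with all libraries (adjusted p = 0.0183), as did the authors' deposited table (log2 fold change -0.43, adjusted p = 0.0285). It overlaps Numa1 on the opposite strand by 80 bases, and whether the counting used strand is not given in the sources used here. Numa1 held 16953 to 22249 counts in a library and fell by 0.40 (adjusted p = 0.00217). Its part in the Il18bp counts was not tested.

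Il1r2 encodes the decoy receptor, which binds IL-1 but lacks a signalling TIR domain. Its longest annotated coding sequence is 1230 bases, against 1728 for Il1r1. Il1r2 (chromosome 1, 40074079 to 40125231, plus strand) was barely detected, with 9, 37 and 17 counts in the C CM libraries and 0, 23 and 26 counts in the AC CM libraries. The 0 in AC CM1 allows up to 3 counts, or 0.0426 CPM, for counting error only. Its log2 fold change of -0.57 had a 95% interval of -2.88 to 1.75 (adjusted p = 0.734), which spans several-fold differences in both directions. The log2 fold change was 0.093 without C CM2 and 0.0012 without AC CM1, that is, close to no difference. Neutrophils are a known source of Il1r2. The summed neutrophil and granulocyte precursor markers were lower after AC CM, as given above. Of the 12 tested, 10 were lower, while Retnlg and Mmp8 did not pass (log2 fold change -0.17 and -0.01). The part of neutrophils in the Il1r2 counts was not tested.

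Il1r1, the signalling receptor chain, lies downstream of Il1r2 in the same gene cluster (chromosome 1, 40225080 to 40317257, plus strand). It was at 6.30, 6.75 and 9.55 CPM after C CM and at 5.52, 6.03 and 6.27 CPM after AC CM. The groups did not overlap, but AC CM3 was within a fraction of a CPM of C CM1, and C CM3 stood above the rest. The log2 fold change was -0.34 (SE 0.18, 95% interval -0.75 to 0.06, adjusted p = 0.197). Fibroblasts express Il1r1 too, and 5 of their 8 markers were called lower after AC CM. Dcn, Lum and Postn were not called (log2 fold change 0.11, 0.51 and -6e-04). The part of fibroblasts in the Il1r1 level was not tested.

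Il1rap encodes the accessory chain that IL1R1, the IL-33 receptor and the IL-36 receptor share. Il1rap (ENSMUSG00000022514.14, chromosome 16, 26581704 to 26730117, plus strand) was at 20.9, 26.1 and 22.7 CPM after C CM and at 29.6, 28.9 and 29.5 CPM after AC CM. All 3 AC CM libraries lay above every C CM library and close to each other. It rose by 0.34 (SE 0.10, 95% interval 0.11 to 0.57, adjusted p = 0.0368), the single rise among the 10 genes. The call ended when C CM1 was left out (0.27, adjusted p = 0.0518), and likewise for C CM3 (0.32, 0.0928), AC CM1 (0.33, 0.110), AC CM2 (0.35, 0.0947) and AC CM3 (0.34, 0.105). The predicted gene Gm20319 on the opposite strand overlaps its last 15672 bases. It held 96 to 188 counts in a library, against 1369 to 2353 for Il1rap, and had a log2 fold change of 0.49 (adjusted p = 0.150). The part of the shared bases in the Il1rap counts was not tested.

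Sigirr encodes a single-immunoglobulin receptor of the family that dampens IL-1 and Toll-like receptor signalling. Sigirr (ENSMUSG00000025494.8, chromosome 7, 141091175 to 141100572, minus strand) was at 4.19, 4.28 and 4.85 CPM after C CM and at 2.12, 2.28 and 2.42 CPM after AC CM. The lowest C CM library was well above the highest AC CM library, and no other gene of the table overlaps it. It fell by 0.97 on the log2 scale (SE 0.17, 95% interval -1.35 to -0.58, adjusted p = 0.00324), the largest called change among the 10. Leaving out any 1 library kept it between -1.02 and -0.90, with an adjusted p of at most 0.0161. Without AC CM2 and AC CM3, the libraries with the most hepatocyte RNA, it was at -1.07 (adjusted p = 0.0705). Lymphocytes and dendritic cells can also express Sigirr, and the sums of their markers were lower as well. Their part in the fall was not tested.

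**Figure D3:**
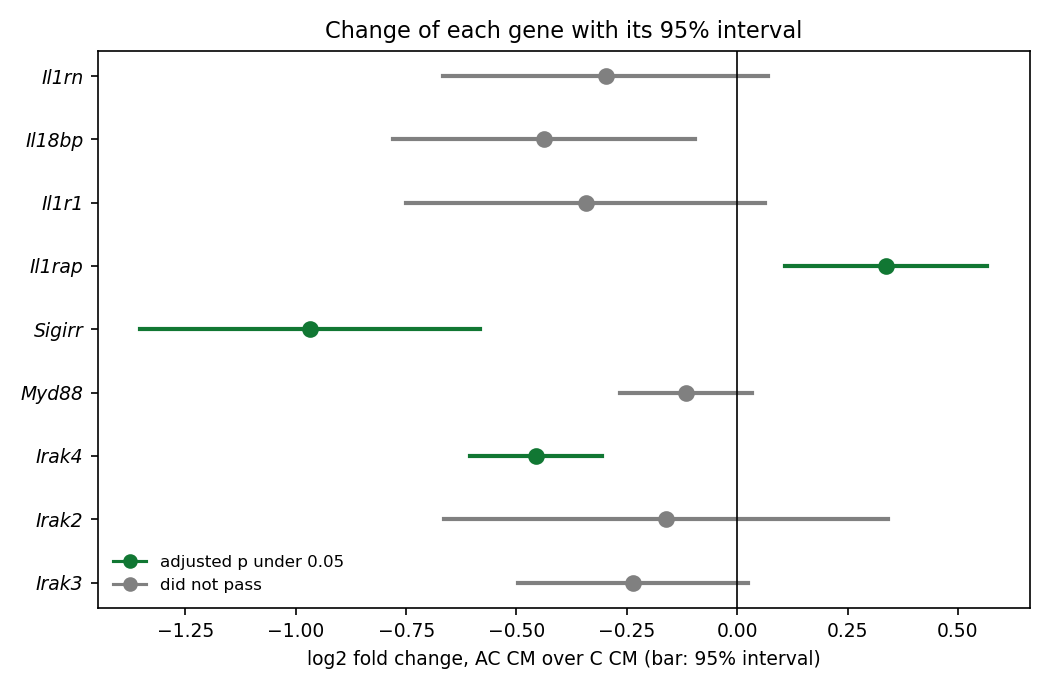
Log2 fold change (AC CM over C CM, horizontal axis) of 9 of the genes with its 95% interval. Green marks an adjusted p under 0.05. Il1r2 is left out of the plot because its interval, -2.88 to 1.75, would stretch the axis. Only Sigirr, Irak4 and Il1rap are green, and the interval of Il18bp lies below 0 without passing the adjusted threshold.

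Myd88 encodes the adaptor of the IL-1 family receptors and most Toll-like receptors. Myd88 (chromosome 9, 119335934 to 119341411, minus strand) was at 93.4, 95.4 and 93.9 CPM after C CM and at 88.5, 81.8 and 90.6 CPM after AC CM. Every AC CM library was lower, by little, with a log2 fold change of -0.12 (SE 0.07, 95% interval -0.26 to 0.03, adjusted p = 0.234). Its first 1736 bases overlap Acaa1a on the opposite strand, which held 5625 to 6629 counts against 6121 to 7223 for Myd88 and itself fell by 0.29.

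Irak4 encodes the kinase that binds MyD88 first and activates the others. Irak4 (ENSMUSG00000059883.16, chromosome 15, 94543643 to 94581815, plus strand) was at 85.0, 80.2 and 79.3 CPM after C CM and at 58.6, 60.6 and 59.2 CPM after AC CM. The groups were far apart relative to their spread. It fell by 0.46 on the log2 scale (SE 0.07, 95% interval -0.60 to -0.31, adjusted p = 0.00119), and leaving out any 1 library kept it between -0.48 and -0.42 with an adjusted p of at most 0.0112. Without AC CM2 and AC CM3 it was at -0.48 (adjusted p = 0.0898). The last 3865 bases of the gene overlap Twf1 on the opposite strand. Twf1 held more counts in each library and had a log2 fold change of 0.33 (adjusted p = 0.00717). The part of the shared bases in the Irak4 counts was not tested.

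Irak4 and Il1rap are the called genes for which RefSeq's promoter table (GRCm38.p6) holds sequence, and the bases ahead of their first annotated base are shown so that the start regions of a gene that fell and a gene that rose can be set side by side. They cover chr15:94543410-94543642 and chr16:26581455-26581703, plus strand. Capitals mark matches, on either strand, to a loose NF-kB pattern (GGG, any 5 bases, CC) or to an ETS core (CCGGAA).
Irak4: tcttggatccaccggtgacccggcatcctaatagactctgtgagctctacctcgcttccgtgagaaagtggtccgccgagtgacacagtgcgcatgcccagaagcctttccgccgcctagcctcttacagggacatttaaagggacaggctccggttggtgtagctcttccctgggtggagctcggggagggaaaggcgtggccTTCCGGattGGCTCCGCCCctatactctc
Il1rap: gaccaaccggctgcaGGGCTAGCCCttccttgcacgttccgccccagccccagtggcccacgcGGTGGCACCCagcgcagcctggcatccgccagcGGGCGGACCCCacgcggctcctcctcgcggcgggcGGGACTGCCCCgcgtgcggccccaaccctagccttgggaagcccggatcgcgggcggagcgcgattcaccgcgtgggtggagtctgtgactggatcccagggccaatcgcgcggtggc
In the 250 bases before the start site, Irak4 holds 1 NF-kB pattern, which shares its bases with a GC box (GGGCGG), and 1 ETS core. Il1rap holds 6 matches to the NF-kB pattern, some shifted by 1 base from each other or sharing bases with some of its 4 GC boxes. The NF-kB pattern is common: 45.8% of 32851 promoter windows of the same length hold it, as do windows of 5 of the 9 genes with a promoter entry (13 windows in all, some genes having several). The ETS core was in 12.0% of all windows and in 1 of the 9 genes, the GC box in 32.7% and in 5 genes. An AP-1 pattern (TGANTCA, 6.75% of windows) was in Il1rn alone and an interferon response pattern (ISRE, GAAA, any 2 bases, GAAA, 2.98%) in Myd88 alone. A PU.1 core (GAGGAA, 23.3%) and a cAMP response element (TGACGTCA, 1.55%) were in none. These are letter matches in a short window and no measure of binding.

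Irak2 encodes a kinase that sustains the signal after IRAK4. Irak2 (chromosome 6, 113638467 to 113695026, plus strand) was at 30.2, 46.9 and 42.8 CPM after C CM and at 38.7, 26.6 and 41.9 CPM after AC CM. The groups overlapped widely, with C CM1 and AC CM2 low. The log2 fold change was -0.16 (SE 0.21, 95% interval -0.66 to 0.34, adjusted p = 0.636), and 0.015 without AC CM2. The libraries lowest in each group were the same as for Il1rn and Il1b.

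Irak3 encodes IRAK-M, a pseudokinase of monocytes and macrophages that holds the relay back. Irak3 (chromosome 10, 120141648 to 120202130, minus strand) was at 29.6, 31.0 and 39.1 CPM after C CM and at 29.5, 28.1 and 27.0 CPM after AC CM. The groups did not overlap, but C CM1 and AC CM1 were nearly equal. On the log2 scale the difference was -0.24 (SE 0.11, 95% interval -0.50 to 0.02, adjusted p = 0.166). Its start overlaps Tmbim4 on the opposite strand by 541 bases, and Tmbim4 was at -0.14 (adjusted p = 0.504).

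The rest of the pathway was followed in lists of related genes, whose counts are read beside the 26.5% of all genes that passed. Of 9 IL-1 family ligand genes, 4 were tested, of which 2 fell and 2 did not pass, with a median log2 fold change of -0.40. With 1 library left out, 0 to 2 passed, with 0 without C CM2 or C CM3. Il1b fell as described, and Il36g, an epithelial and myeloid IL-1 family ligand, had 35, 37 and 40 counts in the C CM libraries and 4, 7 and 0 in the AC CM libraries. Il36g fell by 3.47 (SE 0.84, adjusted p = 0.0152), which became 0.0548, 0.0562 or 0.0533 with C CM2, C CM3 or AC CM1 left out. Il1a, the alarmin form of IL-1, was at -0.03 (SE 0.35, adjusted p = 0.966), and Il18, which Il18bp neutralises, was at 0.31 (SE 0.13, adjusted p = 0.120). Il33, Il36a, Il36b, Il36rn and Il1f10 had 0 counts in every library.

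Of 6 other receptors of the family, 4 were tested, of which 3 fell and 1 did not pass, with a median of -0.76. With 1 library left out, 1 to 2 passed. The 4 tested genes share a cluster of 477627 bases on chromosome 1 with Il1r2 and Il1r1, all on the plus strand. Il18r1, the IL-18 binding chain, was at 1.60, 1.84 and 1.90 CPM after C CM and at 0.97, 0.75 and 0.64 CPM after AC CM, a fall of 1.18 on the log2 scale (SE 0.27, adjusted p = 0.0123). Its partner chain Il18rap was at -0.80 (SE 0.22, adjusted p = 0.0279) and the IL-36 receptor gene Il1rl2 at -0.72 (SE 0.22, adjusted p = 0.0407). The IL-33 receptor gene Il1rl1 was at -0.26 (adjusted p = 0.427). Il1rapl1 and Il1rapl2 had 0 counts in every library. All 6 genes of the cluster had a log2 fold change below 0, but 3 of the 6 did not pass and the sign of Il1r2 was not stable.

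Il18rap no longer passed with C CM2, C CM3, AC CM2 or AC CM3 left out (adjusted p = 0.102, 0.0779, 0.0887 and 0.102). For Il1rl2 the same held of C CM1, C CM2, C CM3, AC CM1 and AC CM3 (adjusted p = 0.0858, 0.111, 0.0679, 0.0779 and 0.104). Lymphocytes carry the IL-18 receptor, and their marker sum, which was mostly Cd79b, was lower after AC CM. Their part in these values was not tested.

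**Figure D4:**
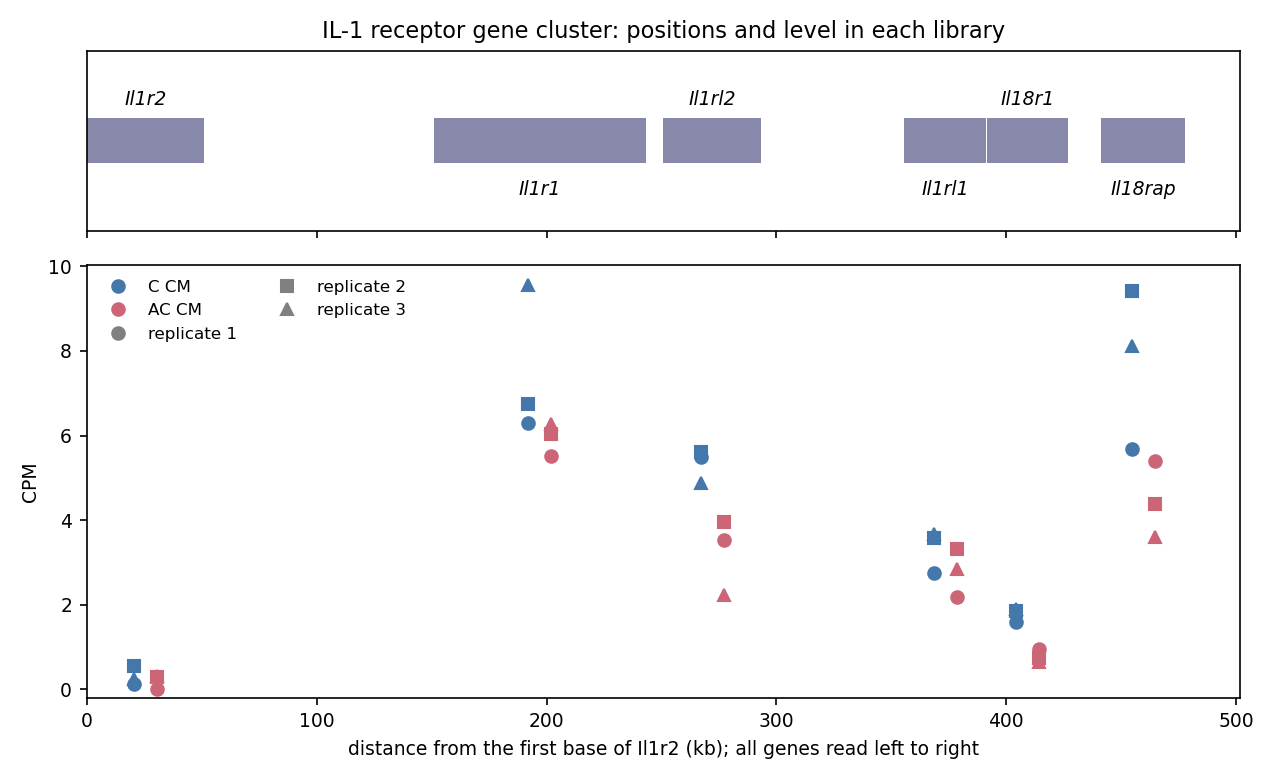
Upper panel, the 6 receptor genes of the chromosome 1 cluster by distance from the first base of Il1r2 (kb). Lower panel, CPM of each gene in every library, C CM in blue and AC CM in red. Il1r2 sits near 0 in all libraries, and the AC CM points lie below the C CM points for Il1r1, Il1rl2, Il18r1 and Il18rap.

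Of 27 relay genes that act with or after MyD88, 3 rose, 5 fell and 19 did not pass, with a median of -0.05. The 8 calls became 5 (2 higher, 3 lower) without C CM2, AC CM1, AC CM2 or AC CM3. Of the falls, Tifa (-0.27, adjusted p = 0.0319) and Map3k8 (-0.43, 0.0385), named here after their values were seen, each missed the threshold in 5 of the 6 fits with 1 library left out. Irak1, the kinase that IRAK4 phosphorylates, was at 64.7, 57.0 and 68.4 CPM after C CM and at 93.7, 77.3 and 87.0 CPM after AC CM. Every AC CM library was higher, a rise of 0.44 (SE 0.10, adjusted p = 0.00988), opposite in sign to Irak4. Ube2n, the E2 enzyme that builds lysine-63 ubiquitin chains with TRAF6, rose by 0.53 (SE 0.09, adjusted p = 0.00262). Chuk, the IKK alpha kinase, rose by 0.33 (SE 0.09, adjusted p = 0.0265), which did not pass with C CM2, AC CM1, AC CM2 or AC CM3 left out (adjusted p = 0.0677, 0.0718, 0.0600 and 0.101). Peli2, a Pellino ubiquitin ligase that binds IRAKs, was at 64.5, 65.6 and 66.9 CPM after C CM and at 22.3, 24.2 and 24.5 CPM after AC CM. It fell by 1.47 (SE 0.07, adjusted p = 4.13e-06), more than any of the 10 genes. Ticam2, the TLR4 adaptor TRAM, fell by 0.90 (SE 0.08, adjusted p = 1.14e-04) and Mapk14, the p38 alpha kinase, by 0.59 (SE 0.08, adjusted p = 9.24e-04). Traf6, the ubiquitin ligase after the IRAKs, was at 0.24 (SE 0.08, adjusted p = 0.0609) and Tollip, an inhibitor that binds IRAK1, at 0.15 (SE 0.08, adjusted p = 0.179).

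Of 6 genes that process and release IL-1, 1 rose and 5 did not pass, with a median of 0.07. Casp1, which cleaves the precursors of IL-1 beta and IL-18, rose from 55.4, 72.6 and 68.6 CPM to 95.6, 94.6 and 99.3 CPM, by 0.56 (SE 0.10, adjusted p = 0.00355). The sensor Nlrp3 was at 0.13 (adjusted p = 0.254) and the pore protein gene Gsdmd at -0.11 (adjusted p = 0.234). Casp8, Casp4 and Pycard did not pass either (adjusted p = 0.0918, 0.821 and 0.957).

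Of 14 genes that IL-1 and Toll-like receptors are known to induce, 13 were tested, of which 3 rose, 7 fell and 3 did not pass, with a median of -0.56. The 7 falls were called with any 1 library left out, but the rises went down to 1 without AC CM2 or AC CM3. Ptgs2 (1.01, adjusted p = 0.0299) and Cxcl2 (1.34, 0.0476), the rises named here after their values were seen, each missed the threshold in 4 of those 6 fits. Lcn2, an iron-sequestering acute phase protein also stored in neutrophil granules, was at 40.7, 38.4 and 37.4 CPM after C CM and at 7.81, 9.30 and 10.9 CPM after AC CM, a fall of 2.05 on the log2 scale (SE 0.13, adjusted p = 1.39e-05). The adhesion molecule gene Icam1 fell by 0.88 (SE 0.08, adjusted p = 8.39e-05) and the survival ligase gene Birc3 by 0.83 (SE 0.10, adjusted p = 4.33e-04). Nfkbia, an NF-kB feedback gene, fell by 0.56 (SE 0.08, adjusted p = 8.36e-04) and Nfkbiz by 0.64 (SE 0.10, adjusted p = 0.00143). Saa3, a serum amyloid gene, went the other way and rose by 1.18 (SE 0.13, adjusted p = 3.13e-04), from 32.4, 40.5 and 27.6 to 81.6, 76.8 and 70.1 CPM. Saa3 was called with any 1 library left out. For Lcn2, the granulocyte markers that fell with it are given above, and their part was not tested.

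**Figure D5:**
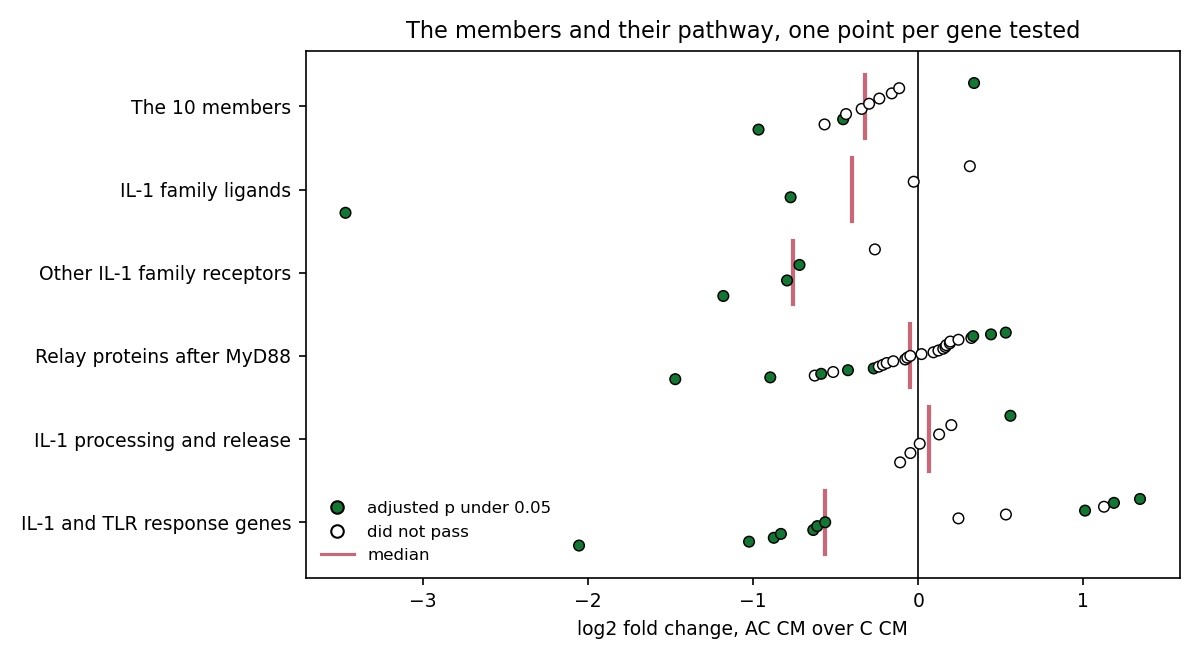
Log2 fold change (AC CM over C CM, horizontal axis) of the 10 genes and of the 5 related lists, 1 point per gene tested, filled where the adjusted p is under 0.05, with the median of each list in red. The medians run from -0.76 for the other receptors to 0.07 for the processing genes.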

How the data were processed

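RNA was measured by mRNA sequencing in 6 libraries, 3 per group, grouped by title. The authors deposited raw read counts per gene, which all tests used. Their deposited signal columns, which went unused, are those counts over 1 constant per library. The log2 values and p-values in the authors' deposited table come from their comparison of the same groups. The submitters' processing notes list DESeq2 1.18.1, R 3.4.3, HISAT2 2.1.0 and fastp 0.17.1 but no roles. Which counter, genome build and strand setting they used is not given in the sources used here. For all 49035 gene identifiers found in GENCODE M21 (GRCm38) the coordinates were those of that annotation, so its exons gave the lengths.

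Of 52550 genes, edgeR's filterByExpr kept 17863, and edgeR 4.0.16 (R 4.3.3) gave TMM scaling and a robust quasi-likelihood fit on group alone, with p-values adjusted over all of them by Benjamini-Hochberg. The SE is the size of the log2 fold change over the root of F, and intervals use the t distribution of the fit. The procedure was tested on simulated data. No set test was run. The genes and lists were chosen with earlier results of these data known. The genes named are the 10 members, up to 6 of each related list with the smallest p, and Il1a, Il1b, Il18, Irak1, Traf6 and Tollip in every case. Il36a, Il36b, Il36g and Il36rn were found under older symbols through RefSeq synonyms. DESeq2 1.42.0 and limma-voom (limma 3.58.1) were run as alternatives, with other scalings and filters, a replicate block, libraries left out, the 20 most counted genes left out and counts divided by 4. Figures were drawn with matplotlib 3.10.9 and lengths and promoters were read with pandas 2.3.3 (Python 3.11.15).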

Additional observations from a re-analysis of the deposited data

How the results depend on the processing

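With AC CM2 and AC CM3 left out, the spread of AC CM is taken from the C CM libraries. edgeR calls then fell from 4741 to 1274 over all genes, from 3 to 0 among the 10 genes (4 at an unadjusted p under 0.05, as with all libraries in edgeR, DESeq2 and limma-voom) and from 24 to 7 over the related lists. Sigirr was at -1.07, Irak4 at -0.48 and Il1rap at 0.35, and none of them passed the adjusted threshold. The 4 genes were not the same as in edgeR with all libraries, since Il1r2 took the place of Il1rap. Il1r2 was at -7.40 in this fit, a value that rests on its 0 counts in AC CM1, the only AC CM library left. With 1 library left out at a time, 3158 (without AC CM3) to 5023 genes were called over all genes and 2 to 3 among the 10, and Il1rap ranged from 0.27 to 0.43. Signs turned only in genes that had not passed. With 1 library out, Il1r2 ranged from -1.04 to 0.093, Irak2 from -0.32 to 0.015, Il1a from -0.26 to 0.27, Tab3 from -0.059 to 0.26, Map2k6 from -0.11 to 0.016, Casp4 from -0.16 to 0.070 and Pycard from -0.036 to 0.094. Upper-quartile scaling put Ikbkb at -0.0042 and Pycard at -0.0155, a filter of at least 1 CPM in at least 3 libraries put Pycard at -7e-04, and without AC CM2 and AC CM3 Ikbkb was at -0.026 and Il1a at 0.35. The cause was not tested. With the replicate block, Il1rap was at 0.34 (adjusted p = 0.0514) and 4397 genes were called, 2 of them among the 10, and Il1b, Il18rap and Tifa also missed the threshold (adjusted p = 0.0538, 0.0524 and 0.0531). Same-numbered libraries deviated together with correlations of -0.078, 0.069 and 0.057, so no strong shared deviation was seen. With 3 libraries per group, these values cannot decide whether the numbers pair the samples. Among all alternatives, Il18bp passed only in DESeq2 and without AC CM2. The log2 ratio of Il1rn to Il1b was recomputed only with libraries left out, with 0.5 counts added and with replicates paired. It differed by 0.42 to 0.51. Scaling cannot change a ratio within a library, and pairing cannot change its mean difference. Paired, an exact sign-flip test gave p = 0.25, the smallest that 3 pairs allow. The log2 ratio of Il1r2 to Il1r1 has no value in AC CM1, where Il1r2 is at 0. With 0.5 counts added it differed by -1.30 (exact permutation p = 0.80). Il1r2 held at most 37 counts in a library, and its C CM libraries alone ran from 9 to 37.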

Other observations

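A pair of genes on the related lists split the libraries in a way that does not follow the groups, and was picked out after the values were seen. Tnfaip3, which encodes the A20 enzyme that removes ubiquitin from TRAF6, was at 13.3, 38.4 and 12.8 CPM in C CM1, C CM2 and C CM3 and at 40.8, 38.1 and 14.3 CPM in AC CM1, AC CM2 and AC CM3. Ube2v1, the partner of the E2 enzyme Ube2n, was at 114.5, 30.0 and 84.5 CPM and at 26.8, 30.6 and 90.8 CPM in the same order. Tnfaip3 was therefore low, and Ube2v1 high, in C CM1, C CM3 and AC CM3. Neither gene passed the test between the groups (log2 fold change 0.53, SE 0.67 and -0.63, SE 0.77). Of the 10 genes of the report, none divided the libraries in this way.

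AC CM2 held the lowest level of its group for Il1rn, Il1b, Il1a and Irak2, and the highest for Il18bp.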
